A study of Saccharomyces cerevisiae with 22 samples.

Results

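The genes described here encode the proteins of the cytosolic ribosome of Saccharomyces cerevisiae. Members were chosen by name, as every array probe whose gene symbol is RPL or RPS followed by a number and an optional A or B, together with the stalk genes RPP0, RPP1A, RPP1B, RPP2A and RPP2B. This gave 127 probes for 125 genes, of which 72 belong to the large and 53 to the small subunit, out of 6353 features tested. All 125 members were above background on all 22 arrays, so the filter on dim probes removed none of them.

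Ribosomal protein genes are among the most strongly transcribed genes of growing yeast and are switched together by the factors Rap1, Fhl1, Ifh1 and Sfp1. TOR signalling, which rapamycin normally blocks, keeps them active. Most of them exist as a pair of near-identical copies, A and B, left by an ancient genome duplication, and many carry an intron, which is uncommon in this yeast. One of them, RPL13A, is also the tool of the experiment: its protein was fused to FKBP12 in both strains and served as the anchor that carries a tagged nuclear factor out with newly made ribosomal particles.

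The arrays measured RNA made in the last 6 min before harvest, marked with 5 mM 4-thiouracil (4tU), a uracil analog. Both strains, WT-aa and Hsf1-aa, carried the tor1-1 allele, a deletion of fpr1 and RPL13A-FKBP12-NAT in the By4742 background, so that rapamycin should not act through TOR in either. Hsf1-aa also carried Hsf1-FRB-yEGFP, the chaperone gene activator with the partner tag that rapamycin joins to the anchor. The slow course held 2 arrays (letters a and b) for each strain at 0, 15, 30, 60 and 90 min of 0.15 µM rapamycin, each hybridised beside pooled 4tU RNA of WT-aa that had seen no rapamycin. The standard depletion held 1 array per strain at 30 min of 7.5 µM rapamycin, set against a pool of RNA without 4tU whose label names BY4742. The strains' number of clones is not stated. In a bulk culture a change in some cells and a smaller change in every cell cannot be told apart.

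Values are log2 ratios of sample over reference, and differences between groups are differences of these ratios, given with the standard error (SE) of the limma fit, n = 2 arrays per group. A feature was called when its Benjamini-Hochberg adjusted p over all 6353 features was under 0.05. HSF1 itself read lower in the tagged strain at all 5 times, before rapamycin too, by -2.17 ± 0.23 at 0 min and by -1.63 ± 0.23 at 90 min (adjusted p = 9.71e-04 and 0.00125). The Hsf1 target genes HSP82, HSC82 and BTN2 were lower in Hsf1-aa at 90 min by -2.98, -2.70 and -2.95 (adjusted p = 5.09e-08, 1.24e-09 and 1.24e-09). The 4 arrays at 30 min stood apart, with array quality weights of 0.442 (WT-aa) and 0.449 (Hsf1-aa) against 0.818 to 1.62 in the other groups. They share in the spread estimated for every gene, so counts of called members are also given without them where these differ, a choice made after the data were seen. Without them no member was called in the strain difference at 0, 15 or 90 min, nor in its change to 15 or 90 min or the F-test of that change (background 0.11%, 0.252%, 1.37%, 0%, 0.74% and 0.756%).

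Ribosomal protein probes were among the brightest on the array, and this bears on how finely their ratios can be read. Of their 254 spots, 96.9% were among the brightest 1278 yeast spots, and 19.2% of those 1278 spots were theirs. Their median sample intensity on the slow arrays was 11300 to 22543 units, where the median over all yeast spots was 863 to 1789. Within a slow array the members stayed close together. Their median ranged from -0.12 to 0.10 over the 20 arrays, and their SD within an array from 0.09 to 0.24. Letters a and b, which also mark the dye, left a visible imprint. Across members, r between the arrays of a group ran from -0.49 to 0.31 (median -0.15, n = 125 genes that share arrays), and at -0.70 to 0.59 (median 0.30) once each letter's mean was taken from each gene. The lowest of these values belonged to Hsf1-aa at 30 min.

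**Figure D1:**
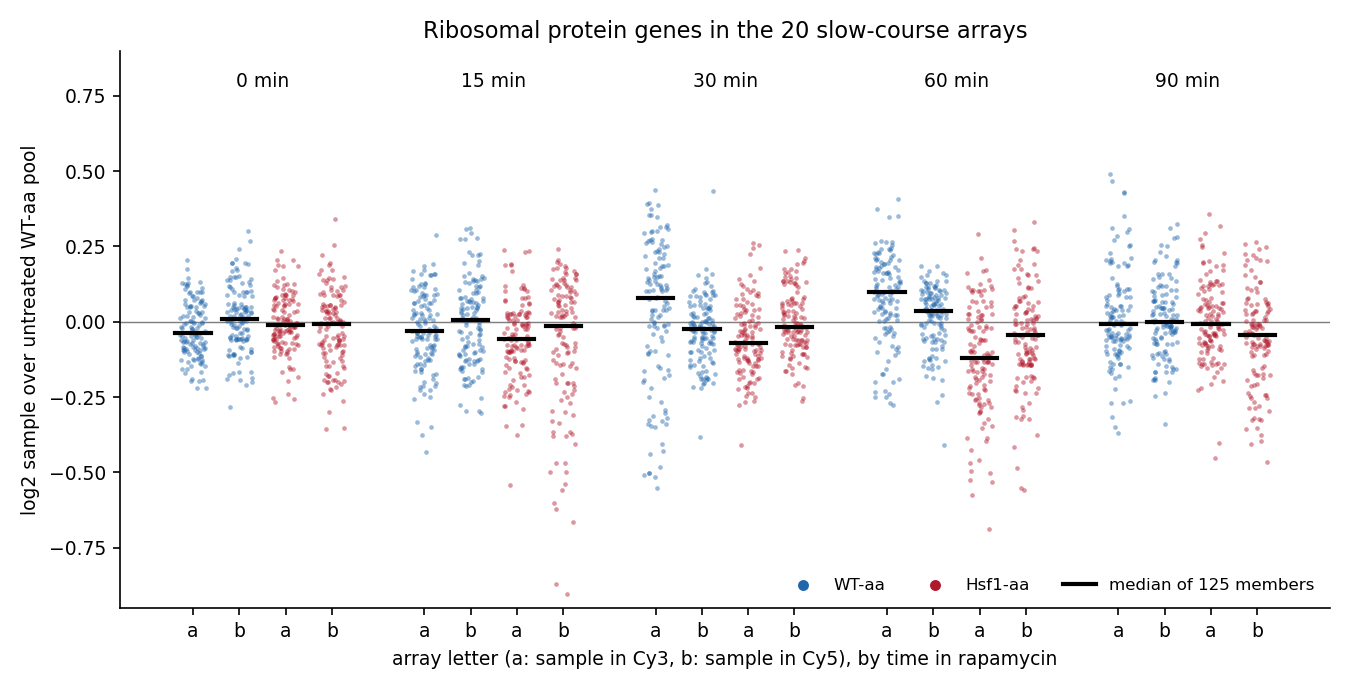
Each point is 1 of 125 ribosomal protein genes on 1 array, as log2 of labelled sample over the untreated WT-aa pool; arrays are grouped by time, with WT-aa in blue and Hsf1-aa in red, and black bars mark medians. Medians lie between -0.12 and 0.10, the 60 min WT-aa medians are both above 0 and the 60 min Hsf1-aa medians both below 0, and WT-aa array a at 30 min has the widest spread (SD 0.24).

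Before rapamycin no member differed detectably between the strains. At 0 min the median member differed by 0.002 (Hsf1-aa minus WT-aa, all features 0.003), and 61 of 125 members were below 0 (48.8%, all features 48.7%). None of the 125 members was called, where 0.126% of all features were, and none had an unadjusted p under 0.05 (all features 1.67%). The 95% interval of the difference lay inside 1.5-fold for all 125 members. The lowest was RPS28B at -0.19 ± 0.15 and the highest RPL40B, which encodes a ubiquitin fused to a large-subunit protein, at 0.16 ± 0.10. The FKBP12 anchor gene RPL13A differed by -0.16 ± 0.14.

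At 15 and 30 min of slow depletion the members leaned slightly lower in Hsf1-aa, with no call. The median was -0.05 at 15 min, with 82 of 125 members below 0 (65.6%, all features 50.5%). At 30 min it was -0.04, with 76 below 0 (60.8%, all features 50.4%). Limma called 0 members at either time (background 0.22% and 0.787%), and 11 and 14 members had an unadjusted p under 0.05, or 8.8% and 11.2% where 9.71% and 13.7% of all features did. RPL8A, of the large subunit, was lowest at 15 min (-0.40 ± 0.13, adjusted p = 0.428), and RPS23B, whose protein sits at the decoding centre, at 30 min (-0.29 ± 0.09, adjusted p = 0.341). RPS9A, another small-subunit gene, was highest at both times, at 0.26 ± 0.12 and 0.31 ± 0.12. At 30 min the outcome hung on single arrays. Members were called only without Hsf1-aa array b, a fit that leaves 1 array in that group. The median at 30 min was 0.005 without Hsf1-aa array a, 0.009 without WT-aa array a, -0.092 without Hsf1-aa array b and -0.086 without WT-aa array b.

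At 60 min the members as a group lay lower in Hsf1-aa than in WT-aa. The array medians were -0.12 (a) and -0.04 (b) in Hsf1-aa and 0.10 (a) and 0.04 (b) in WT-aa, so both arrays of one strain lay below both arrays of the other. The median member differed by -0.14 (all features -0.01), and 104 of 125 were below 0, where 53.7% of all features were. In 57 members (45.6%) both Hsf1-aa arrays lay below both WT-aa arrays, against 20.1% of all features. In the opposite direction there were 5 members (4%), against 17.8%. The count of lower members without overlap depended on the scaling. It was 78 (62.4%, all features 21%) with loess fitted without the ribosomal protein spots and 43 (34.4%, all features 17.7%) with median centring. In the authors' deposited table it was 32 (25.6%), below the 29.3% of all features, with a median member difference of -0.09. At the other times the members' share stayed nearer to that of all features. Members lower without overlap numbered 13 at 0 min, 21 at 15 min, 14 at 30 min and 20 at 90 min, or 10.4%, 16.8%, 11.2% and 16% against 10.8%, 13.5%, 12.3% and 9.73%. Members higher without overlap numbered 8, 14, 9 and 6, or 6.4%, 11.2%, 7.2% and 4.8% against 10.4%, 18.7%, 9.79% and 10%. The shift at 60 min was small for most single genes: 114 of 125 members had a 95% interval inside 1.5-fold. For the other members the interval reached past 1.5-fold.

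No single member was called at 60 min with all arrays in the fit, where 1.21% of all features were. At an unadjusted p under 0.05 there were 36 members lower and 1 higher, that is 29.6% of members in either direction against 16.1% of all features, of which 8.04% were lower and 8.11% higher. The smallest adjusted p was that of RPS30B, a small-subunit gene, at -0.25 ± 0.06 (adjusted p = 0.0942). Its Hsf1-aa arrays read -0.15 and -0.32 and its WT-aa arrays 0.11 and -0.09, which do not overlap. The lowest member was RPS27B, which encodes a zinc-binding small-subunit protein, at -0.42 ± 0.15 (adjusted p = 0.267). Its arrays read -0.69 and -0.05 in Hsf1-aa and 0.04 and 0.07 in WT-aa, so 1 array carried most of the difference. RPL13A was the highest member. When a single array was left out the median ran from -0.181 to -0.110, and whether any member was called depended on the array.

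Without the 4 arrays at 30 min, 12 of 125 members were called at 60 min (9.6%, background 7.67%), 11 of them lower in Hsf1-aa (8.8%, background 3.07%). The estimated differences are the same in both fits, and their SEs are smaller in this one. Among the lower members were RPS31 and RPL40A, whose proteins are made as fusions with ubiquitin. RPS31 read -0.22 and -0.29 in Hsf1-aa and 0.27 and -0.07 in WT-aa, a difference of -0.36 ± 0.07 (adjusted p = 0.0155). RPL40A read -0.35 and -0.09 against 0.10 and 0.14, a difference of -0.33 ± 0.09 (adjusted p = 0.0393). In both genes the strains' arrays did not overlap.

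Both copies of RPS21 and of RPS30 were also in this set. RPS21A differed by -0.26 ± 0.06 and RPS21B by -0.32 ± 0.07 (adjusted p = 0.0336 and 0.0216). RPS30A differed by -0.23 ± 0.06 and RPS30B by -0.25 ± 0.06 (adjusted p = 0.0339 and 0.024). The large-subunit members were RPL20A (-0.30 ± 0.06), RPL23A (-0.27 ± 0.05), RPL38 (-0.23 ± 0.06) and RPL42A (-0.36 ± 0.08), with adjusted p from 0.0156 to 0.042. RPS10A completed the set at -0.29 ± 0.07 (adjusted p = 0.0345). RPL13A was the only call in the other direction.

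By 90 min, when the chaperone targets were at their lowest, the strains' ribosomal protein genes were closer again. The median was -0.04, with 93 of 125 members below 0. Limma called 0 members (background 1.23%), and 0 had an unadjusted p under 0.05 (all features 3.97%). All 125 members had a 95% interval inside 1.5-fold. RPL30, whose protein also regulates splicing of its own transcript, was lowest at -0.19 ± 0.11, and RPL7A highest at 0.14 ± 0.10.

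Averaged over the 5 times, the median member was lower in Hsf1-aa by -0.06 (all features -0.003), with 98 of 125 below 0 (78.4%, all features 51.5%). None was called (background 3.18%), and 30 members lower and 1 higher had an unadjusted p under 0.05, or 24.8% in either direction against 19.4% (9.62% lower and 9.77% higher). RPS10A came nearest, at -0.15 ± 0.04 (adjusted p = 0.0534). Its arrays were lower in Hsf1-aa in 9 of the 10 pairs formed by time and letter, as were those of RPS15 and RPS6A, and no member was lower in all 10. Whether arrays of a strain come from separate cultures at each time is not clear from the labels, so these pairs may not be independent. RPS29A, which encodes a zinc-binding small-subunit protein, had the lowest mean at -0.18 ± 0.07, and RPS9A the highest at 0.12 ± 0.05. Leaving out array b of either strain at 30 min raised the number of calls, in fits that leave 1 array in that group. With any single array left out the median ran from -0.076 to -0.043. Without any 30 min array 1 member was called, RPS31 (-0.15 ± 0.04, adjusted p = 0.0431; 0.8%, background 3.05%).

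**Figure D2:**
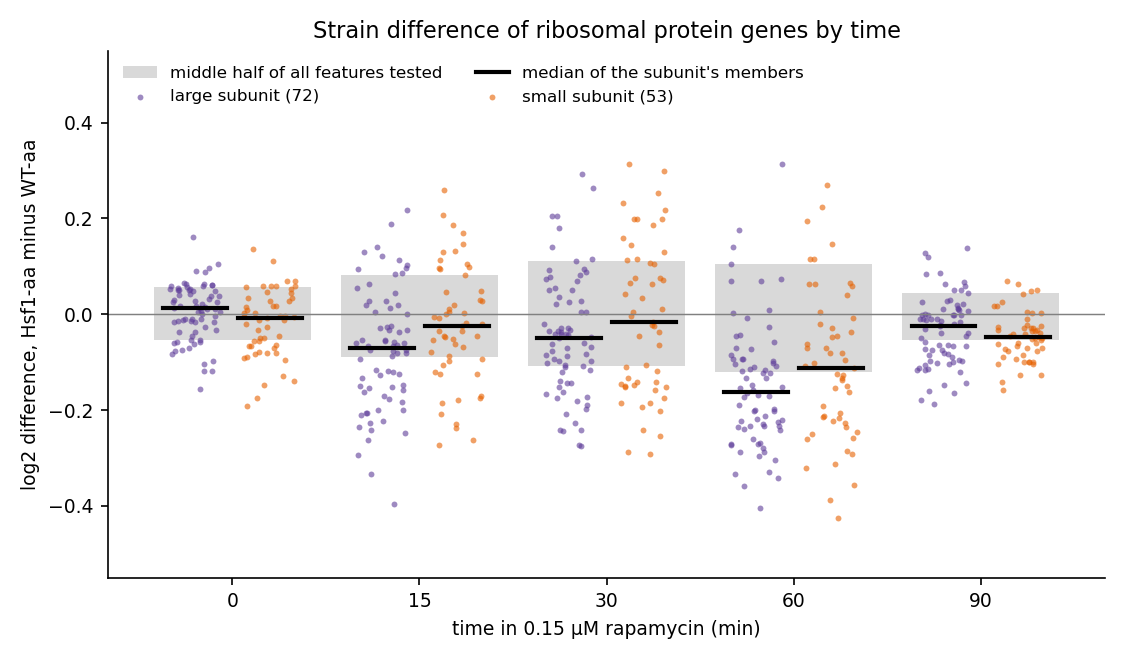
Points are the fitted log2 differences (Hsf1-aa minus WT-aa) of 72 large-subunit and 53 small-subunit genes at each time, black bars their medians, and grey boxes the range between the quartiles of all 6353 features. At 60 min the medians are -0.16 (large) and -0.11 (small), lower than at the other 4 times.

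Both subunits had medians below 0 at 60 min. The median was -0.16 for large-subunit and -0.11 for small-subunit genes, with 63 of 72 and 41 of 53 below 0. At 15 min the medians were -0.07 and -0.02, and at 90 min -0.02 and -0.05, so neither subunit was the lower one throughout. Of the acidic stalk genes, which encode the flexible arm that recruits translation factors, RPP1A, RPP1B, RPP2A and RPP2B lay at -0.10, -0.15, -0.04 and -0.11 at 60 min and RPP0, their base, at 0.07. None of the 5 was called. Across members, longer genes (RefSeq R64 span) had the less negative difference at 60 min, with Spearman's rho 0.36 (n = 125 genes on shared arrays, given as a description). The same rho was -0.18 at 0 min, 0.06 at 15 min, 0.32 at 30 min, 0.16 at 90 min and 0.32 in the mean over times.

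The change of the strain difference since 0 min gave no called member at any time, nor in the F-test over the 4 later times (background 0%, 0.11%, 0.661% and 0.756% at 15, 30, 60 and 90 min, and 0.551% for the F-test). The members with an unadjusted p under 0.05 numbered 6, 9, 21 and 0, or 4.8%, 7.2%, 16.8% and 0% against 3.65%, 11.5%, 13.7% and 2.17%. At 60 min the median was -0.16, with 100 members below 0. RPL8A and RPS9A were lowest and highest at 15 min (-0.45 ± 0.18 and 0.41 ± 0.17). RPS29A and RPS28B were so at 30 min (-0.42 ± 0.23 and 0.49 ± 0.21). RPS27B and RPL13A were so at 60 min (-0.54 ± 0.21 and 0.47 ± 0.19) and RPS29A and RPL7A at 90 min (-0.26 ± 0.23 and 0.22 ± 0.15). The single arrays at 30 min mattered here too. Members were called at 30 min only without Hsf1-aa array b, which again leaves 1 array in that group.

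The anchor gene RPL13A and its untagged copy RPL13B gave different readings along the slow course. In WT-aa, RPL13A read 0.14 and 0.02 at 0 min, -0.26 and -0.30 at 15 min, -0.35 and -0.01 at 30 min, -0.20 and -0.08 at 60 min, and 0.28 and 0.31 at 90 min. In Hsf1-aa it read -0.07 and -0.08, -0.07 and -0.20, 0.26 and -0.21, 0.11 and 0.24, and 0.19 and 0.21 at the same times. WT-aa thus read below the pool at 15 to 60 min and above it at 90 min, while both Hsf1-aa arrays were already above it at 60 min. RPL13B stayed between -0.18 and 0.20 on all 20 arrays.

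The strain difference of RPL13A was 0.14 ± 0.14 at 15 min, 0.20 ± 0.14 at 30 min, 0.31 ± 0.14 at 60 min and -0.10 ± 0.14 at 90 min. With all arrays none of these passed (adjusted p = 0.711, 0.424, 0.297 and 1). Without the 30 min arrays the difference at 60 min passed (0.31 ± 0.07, adjusted p = 0.025), and so did its change since 0 min (0.47 ± 0.10, adjusted p = 0.0302), the single member called in that contrast (0.8%, background 4.67%). RPL13B differed by 0.10 ± 0.08, -0.11 ± 0.08, -0.03 ± 0.08 and -0.07 ± 0.08. Averaged over the slow course, the A minus B ratio was higher in Hsf1-aa by 0.10, and it was higher in 4 of the 10 pairs of time and letter. An exact permutation test over all exchanges of strain within time and letter gave a two-sided p = 0.381, where 0.00195 is the smallest it allows. The test treats each pair of time and letter as an independent unit, which the labels do not establish, so both values are nominal.

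Over time, 9 of 125 members changed by the F-test that joins the 4 later times, each against 0 min and averaged over both strains (7.2%, background 18.4%). They fell into 2 shapes. RPL8B, RPL13A, RPL19B, RPS0B, RPS7B and RPS11A, which encode body proteins of both subunits, were lower at 15 min than at 0 min and higher at 90 min. RPL39, whose protein lines the exit tunnel, and RPL41A and RPL41B, which encode the same very short bridge peptide, were the reverse, lowest at 90 min. The adjusted F-test p ran from 0.0168 (RPL8B) to 0.0491 (RPS7B).

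RPL8B read -0.04 and 0.05 (Hsf1-aa) and 0.21 and 0.04 (WT-aa) at 0 min. At 15 min it read -0.09 and -0.56 and -0.15 and -0.19, all below every 0 min array. At 90 min it read 0.36 and 0.17 and 0.43 and 0.20, which overlaps with 0 min. The mean change was -0.31 ± 0.10 at 15 min and 0.23 ± 0.10 at 90 min (adjusted p = 0.0823 and 0.167), so the gene was called on the whole course and not at a single time.

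RPL19B read -0.04 and 0.01 and 0.13 and 0.04 at 0 min, and 0.19 and 0.20 and 0.25 and 0.16 at 90 min, with no overlap. Its change at 15 min was -0.23 ± 0.08 and at 90 min 0.17 ± 0.08. RPL13A changed by -0.21 ± 0.10 and 0.24 ± 0.10, and RPS7B by -0.21 ± 0.08 and 0.11 ± 0.08. RPS11A changed by -0.14 ± 0.08 at 15 min, -0.16 ± 0.08 at 30 min and 0.18 ± 0.08 at 90 min. RPS0B, needed for maturation of the small subunit, changed by -0.08 ± 0.06 and 0.20 ± 0.06. In RPS0B the letters stood apart at 0 min, with -0.25 and -0.15 on the a arrays and 0.11 and 0.15 on the b arrays.

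RPL39 read 0.21 and -0.20 (Hsf1-aa) and -0.05 and -0.06 (WT-aa) at 0 min, and -0.23 and -0.47 and -0.27 and -0.24 at 90 min, so all 4 later arrays lay below all 4 earlier ones. Its change was -0.27 ± 0.08 (adjusted p = 0.0569). RPL41B read -0.19 to 0.06 at 0 min and -0.45, -0.40, -0.37 and -0.19 at 90 min, which touch at -0.19, a change of -0.25 ± 0.08 (adjusted p = 0.0673). RPL41A read 0.01, -0.30, -0.17 and -0.06 at 0 min and -0.40, -0.38, -0.35 and -0.20 at 90 min, which overlap, and changed by -0.20 ± 0.08. The 2 RPL41 genes each span 78 bp in RefSeq R64, the shortest among the members, whose median span was 771 bp.

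**Figure D3:**
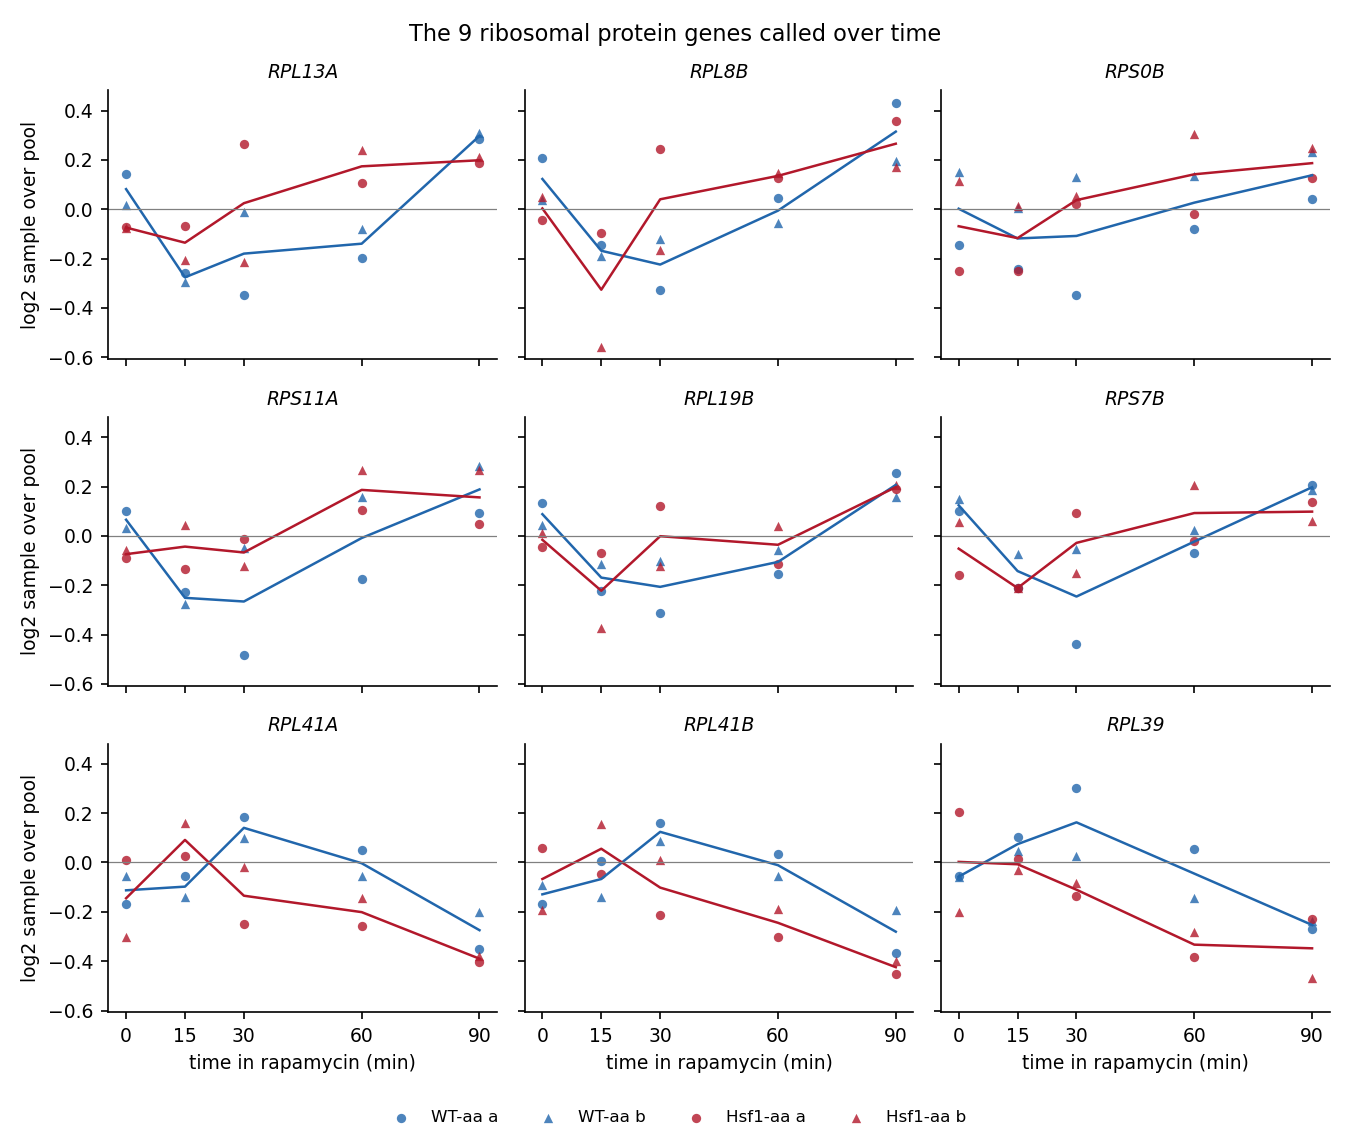
Each panel is 1 of the 9 ribosomal protein genes called over time, with log2 sample over pool on the y axis and minutes in rapamycin on the x axis; points are single arrays (circle a, triangle b) and lines join strain means, WT-aa in blue and Hsf1-aa in red. The upper 6 genes end above 0 on all 4 arrays at 90 min, and RPL41A, RPL41B and RPL39 end below 0 on all 4.

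These calls depended on the arrays and on the dye term. The count was 0 without the dye term, where the calls among all 6353 features fell too, from 1171 to 324. It was 26 without the 30 min arrays (20.8%, background 39.6%). It also varied when a single array was left out, in fits that leave a single array in a group. For those fits the share of all features is not given, so the variation is not read as particular to the members. All 9 were among the 26 called in the fit without the 4 arrays at 30 min, and RPS9A (adjusted p = 0.00197) and RPS11B (adjusted p = 0.00512) had the smallest p among the 17 added. RPL8B kept its call in 34 of 37 alternatives and RPS7B in 13, and none of the 9 changed its direction at 90 min.

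At single times no member was called over both strains (background 4.8%, 0.708%, 2.35% and 6.08% at 15, 30, 60 and 90 min). Members with an unadjusted p under 0.05 were 12, 7, 5 and 13, or 9.6%, 5.6%, 4% and 10.4% against 22.5%, 11.5%, 13.5% and 24.4% of all features. At 15 min RPS20 was lowest (-0.32 ± 0.13) and RPS7A highest (0.19 ± 0.09). At 30 min these were RPL18B (-0.23 ± 0.11) and RPS7A (0.18 ± 0.09), and at 60 min RPL10 (-0.20 ± 0.10) and RPS12 (0.17 ± 0.05, adjusted p = 0.0885). RPS11B was highest at 90 min (0.25 ± 0.10). RPL10 encodes a protein that joins the large subunit late, in the cytoplasm.

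Without the 30 min arrays 6 members fell at 15 min (4.8%, background 14.4%): RPL8B, RPL10, RPL13A, RPL19B, RPS7B and RPS28B. RPS12 rose at 60 min (adjusted p = 0.0389; 0.8%, background 3.18%). At 90 min 4 members rose (RPL13A, RPS0B, RPS9A and RPS11B) and 2 fell (RPL39 and RPL41B; 4.8% in all, background 15.7%).

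Within single strains no member was called with all arrays. In Hsf1-aa the backgrounds were 1.18%, 0.693%, 1.98% and 2.69% at 15, 30, 60 and 90 min and 4.69% for the F-test, and 10, 0, 17 and 5 members had an unadjusted p under 0.05 (8%, 0%, 13.6% and 4% against 14%, 4.34%, 19.5% and 18.9%). In WT-aa they were 0.236%, 0.189%, 0.394% and 0.976%, and 1.34% for the F-test, with 9, 21, 12 and 1 members (7.2%, 16.8%, 9.6% and 0.8% against 17.4%, 22.2%, 9.38% and 7.46%). The strains' medians lay farthest apart at 60 min, when the median member stood at -0.08 against 0 min in Hsf1-aa and at 0.07 in WT-aa. The WT-aa value depended on the scaling. It was 0.11 with loess fitted without the ribosomal protein spots, 0.02 with median centring and -0.01 in the authors' deposited table. The Hsf1-aa value was -0.12, -0.17 and -0.07 in these. The 30 min arrays again weighed heavily: without them the F-test called 10 members in Hsf1-aa (8%, background 20.7%) and 11 in WT-aa (8.8%, background 18%). Calls at 30 min in WT-aa also depended on array b of that group, and the fit without it leaves 1 array there.

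The extremes within each strain are given by name. In Hsf1-aa the lowest members were RPS20 at 15 min (-0.43 ± 0.18), RPS29A at 30 min (-0.19 ± 0.16), RPS27B at 60 min (-0.44 ± 0.15) and RPL41B at 90 min (-0.36 ± 0.11). The highest there were RPL24B (0.28 ± 0.12), RPS9A (0.16 ± 0.12), RPS11A (0.26 ± 0.11) and RPL13A (0.27 ± 0.14). In WT-aa the lowest were RPS28B at 15 min (-0.40 ± 0.15), RPL18B at 30 and 60 min (-0.41 ± 0.15 and -0.31 ± 0.15) and RPL39 at 90 min (-0.20 ± 0.11). The highest were RPS29A (0.26 ± 0.16), RPS23B (0.30 ± 0.09), RPS7A (0.27 ± 0.12) and RPS11B (0.24 ± 0.14). None of these passed with all arrays. Without the 30 min arrays RPL40B was lower and RPS0A higher at 60 min in Hsf1-aa (-0.32 ± 0.08 and 0.23 ± 0.06; 1.6%, background 6.93%). RPL13A, RPS0B and RPS9A were higher at 90 min in Hsf1-aa (2.4%, background 9.37%), and RPL13A, RPS9A and RPS28B lower at 15 min in WT-aa (-0.36 ± 0.07, -0.35 ± 0.07 and -0.40 ± 0.09; 2.4%, background 7.6%).

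How closely paralog copies resembled each other could be read only roughly from these arrays. Of the 125 members, 96 form 48 complete pairs. At 60 min 39 of 48 pairs had the same sign of strain difference in A and B (r = 0.42 across pairs, n = 48 on shared arrays), and 36 had it in the mean over times (r = 0.33). Of all members, 83.2% were below 0 at 60 min and 78.4% in the mean. Most pairs of unrelated members would thus share a sign too. For the change at 90 min over both strains r was 0.54, with 28 of 48 of the same sign, and r was 0.29 in the authors' deposited table. The median gap between copies in that change was 0.061, about the size of its median SE of 0.063. These r values thus cannot separate real differences between copies from array noise. Near-identical copies can bind each other's RNA on an array, so A and B values are uncertain and the true difference may be larger than the one read.

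Some pairs nevertheless read differently. At 90 min over both strains, the largest gap was that of RPS28, with A at -0.11 and B at 0.15 (A minus B -0.26 ± 0.12). RPL13 followed at 0.24 and 0.05 (0.19 ± 0.11), then RPL8 at 0.05 and 0.23 (-0.18 ± 0.09), RPL21 at -0.08 and 0.09 (-0.17 ± 0.10) and RPS22 at -0.03 and 0.13 (-0.16 ± 0.13). Only 1 of the 48 gaps exceeded 2 SE. At 15 min 7 did, and RPS7 had the largest, with A at 0.19 and B at -0.21 (0.40 ± 0.16). Every other pair had a smaller gap at 90 min than RPS22, including RPL41, with A at -0.20 and B at -0.25, whose copies encode the same peptide.

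In the strain difference at 60 min 6 of 48 gaps exceeded 2 SE, among them those of RPS28, RPL13 and RPL8, while those of RPL21 and RPS22 did not. RPS28A lay at -0.26 and RPS28B at 0.15 (gap -0.41 ± 0.17), RPL13A at 0.31 and RPL13B at -0.03 (0.34 ± 0.15), and RPL8A at -0.16 and RPL8B at 0.14 (-0.30 ± 0.13). RPL21A lay at -0.30 and RPL21B at -0.09 (-0.21 ± 0.14), and RPS22A at -0.29 and RPS22B at 0.06 (-0.35 ± 0.19). On single arrays at 60 min RPS28A read -0.26 and -0.08 in Hsf1-aa and 0.10 and 0.07 in WT-aa, and RPS28B read -0.13 and 0.13 against -0.23 and -0.07. RPS28A thus did not overlap between strains, and RPS28B did.

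**Figure D4:**
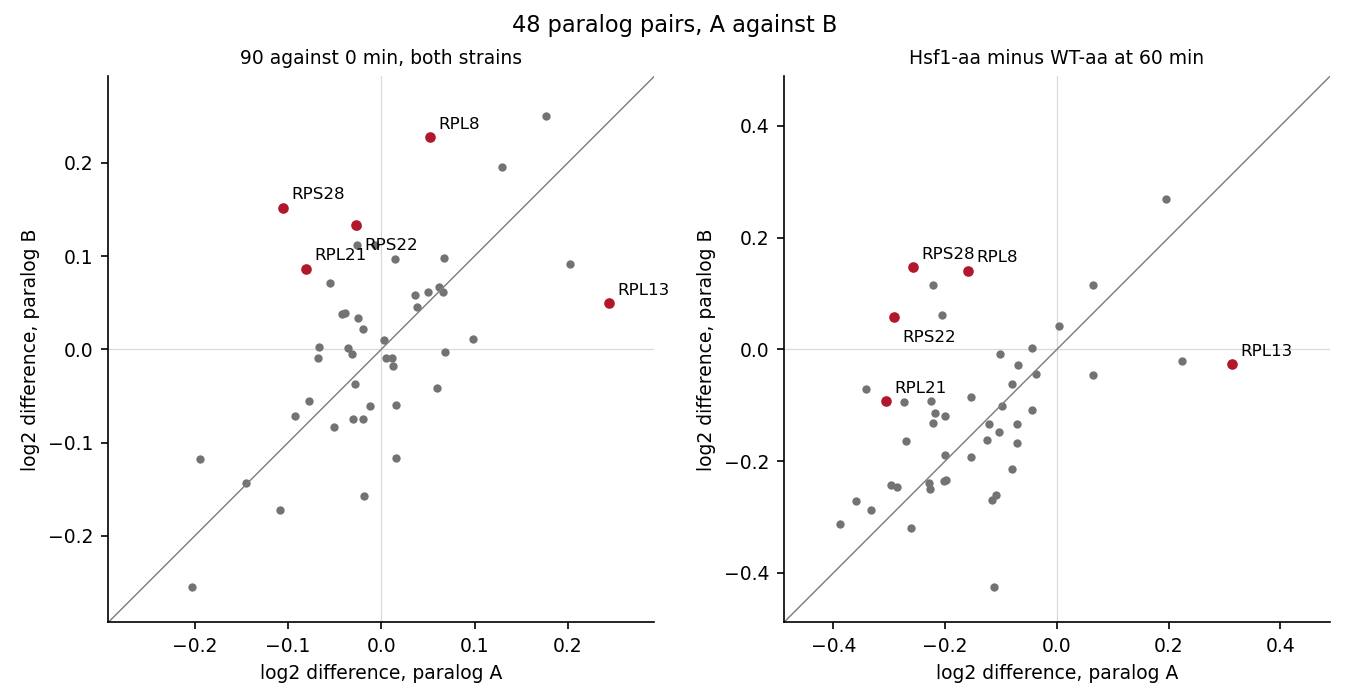
Each point is 1 of 48 paralog pairs, with the log2 difference of copy A on the x axis and of copy B on the y axis, for 90 against 0 min over both strains (left) and Hsf1-aa minus WT-aa at 60 min (right); the line marks equality. The 5 pairs with the largest gap at 90 min are red, and RPL13 lies below the line in both panels while RPS28, RPL8, RPL21 and RPS22 lie above it.

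The standard arrays answer another question, since their reference is RNA without 4tU. There the ratio compares newly made RNA with an unlabelled pool, and with 1 array per strain no test was possible. Members were lower in the new RNA than in the pool: the median was -0.30 in WT-aa and -0.40 in Hsf1-aa (all features 0.03 and 0.02), with 97 and 99 of 125 below 0. The size of this offset rests on the normalisation, since centring each array on its median gave -1.60 and -1.38, and loess fitted without the ribosomal protein spots gave -0.45 and -0.62. The reference channel was dim, with a median over yeast spots of 297 units in WT-aa and 173 in Hsf1-aa, but bright at the members' spots (19902 and 9180).

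Members had an SD of 0.60 in WT-aa and 0.64 in Hsf1-aa on these arrays, wider than in the slow course, as did all features (0.55 and 0.55, against 0.11 to 0.28 on slow arrays). The members' order was much the same in both strains (r = 0.97, n = 125 genes on 2 arrays with the same kind of reference). RPS20 was lowest, at -2.82 in WT-aa and -2.90 in Hsf1-aa, and RPS4B highest, at 0.85 and 0.73. On the WT-aa array 2 sample spots of RPS4B were saturated, so its value there is uncertain. Also low were RPS25B (-2.17 and -2.23) and RPS30A (-2.16 and -2.31), and also high RPL12A (0.46 and 0.29) and RPL3 (0.42 and 0.49). These were named after their values were seen. The anchor gene RPL13A read -1.36 and -1.51, lower than RPL13B at -0.54 and -0.51. The A minus B gap was -0.82 in WT-aa and -0.995 in Hsf1-aa, and -0.38 and -0.39 with median centring. The pool's label names BY4742 and no FKBP12 fusion, and whether the fusion bears on this ratio was not tested.

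Between the strains the standard arrays differed little at the members. The median difference (Hsf1-aa minus WT-aa) was -0.07, with 94 of 125 below 0 (75.2%, all features 49%), but it turned to 0.22 with median centring (all features 0.05). Past a 1.5-fold bound lay 2 members lower and 0 higher, where 0.614% and 0.22% of all features did. These were RPP1A, an acidic stalk gene, at -1.08, and RPL43A at -0.59, both named after their values were seen. The 2 spots of RPP1A read -0.68 and -0.71 in WT-aa and -1.72 and -1.83 in Hsf1-aa. The spots of RPL43A read -1.24 and -1.28 against -1.47 and -2.22, so they disagreed in Hsf1-aa. In the slow course at 30 min RPP1A differed by 0.09 and RPL43A by -0.04, at a lower dose.

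RPL9B and RPL35A are each read by 2 probes, which were averaged. On the standard arrays the RPL9B probes disagreed, at -0.27 and -0.36 for one and -1.40 and -1.55 for the other. The RPL35A probes read 0.17 and 0.22, and -0.21 and -0.15.

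**Figure D5:**
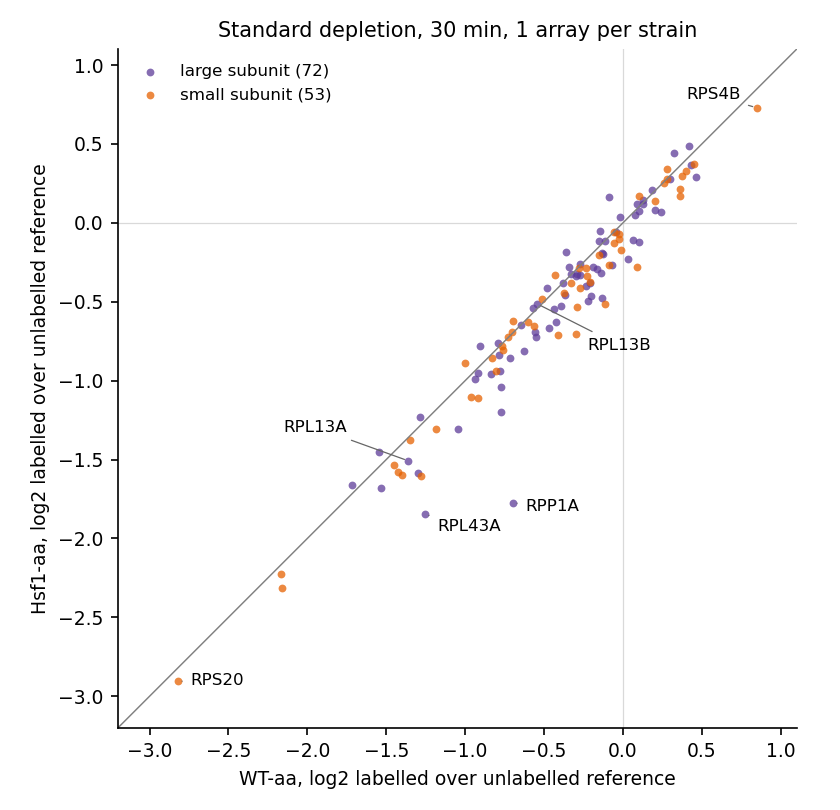
Each point is 1 of 125 ribosomal protein genes, with log2 of labelled sample over unlabelled reference in WT-aa on the x axis and in Hsf1-aa on the y axis (1 array each, 30 min of 7.5 µM rapamycin); the line marks equality. RPP1A and RPL43A lie farthest below the line, and RPL13A (-1.36 and -1.51) lies lower than RPL13B (-0.54 and -0.51).

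Genes around the ribosomal proteins give the setting. Of 43 ribosome biogenesis genes, which assemble the subunits in the nucleolus, 16 fell at 15 min over both strains and 0 rose (median -0.27; 4.8% of all features were called in either direction), where the median ribosomal protein gene stood at -0.02. Examples were DBP2, an RNA helicase (-0.60 ± 0.09), ENP1 (-0.49 ± 0.08) and RRP5 (-0.47 ± 0.08), with adjusted p = 0.00431, 0.00484 and 0.0084. Of 7 dedicated chaperones of ribosomal proteins measured, TSR4 alone was called at 15 min, against the same 4.8%, and fell (-0.34 ± 0.05, adjusted p = 0.00431). Of 14 regulators of these genes, TOD6, a repressor of ribosome biogenesis genes, was the 1 called at 15 min, a share near that 4.8%, and fell (-0.54 ± 0.12, adjusted p = 0.0272), and RAP1, FHL1, IFH1 and SFP1 were not called. Of 54 mitochondrial ribosomal protein genes, 5 rose and 1 fell at 90 min over both strains, where 6.08% of all features were called, and in Hsf1-aa alone RSM19 was the 1 called at 90 min. Of 27 translation factor genes none was called at a single time. The F-test over both strains (background 18.4%) called 23 of the 43 biogenesis and 11 of the 54 mitochondrial genes, not all named here. It also called 3 of the 14 regulators (REB1, TOD6 and TOR1) and 2 of the 7 chaperones (YAR1 and TSR4). Among the 27 translation factors it called 1, GCD11. At 60 min, none of these lists had a called strain difference, and their medians were 0.11 (biogenesis), 0.07 (chaperones), 0.03 (regulators), 0.08 (translation factors) and -0.01 (mitochondrial), beside -0.14 for the cytosolic ribosomal protein genes.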

How the data were processed

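Per the labels, each array compared 4tU-labelled polyA RNA of a culture with a reference pool, with the sample in Cy3 on letter a and in Cy5 on letter b of the slow course. For every spot the authors deposited the linear intensity and local background of both dyes, and neither scanner nor software is named. A table deposited by the authors holds log2 ratios of Cy5 to Cy3; its normalisation and centring are unknown, its column medians lay between -0.00367 and 0.0219, and it ran in the direction of the scanner ratios on every array (r = 0.631 to 0.971). It was used as an alternative.

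Intensity was background-corrected by normexp (offset 50) and normalised by loess within arrays, with control spots at weight 0, and turned to sample over reference. Spots of a gene were averaged. Features above background by 2 SD on at least 2 slow arrays were tested. All 20 slow arrays were fitted in limma 3.58.1 (R 4.3.3) with 10 groups and a dye term (9 residual degrees of freedom); p-values are two-sided. The series states separate cultures for the 2 arrays of a group, but titles carry 1 running number for both letters; if they share a culture, p-values measure technical spread alone. The letter entered the fit as the dye, and no culture of one strain is stated to pair with one of the other. The number of arrays limits the precision. Loess sets each array's middle to 0, which hides any change common to the whole transcriptome.

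The members and lists were chosen with earlier results of these data known. Genes were named by rule: called members, the highest and lowest member of each contrast, RPL13A and RPL13B, the 5 paralog pairs farthest apart at 90 min over both strains with the pairs of members so named, and called members of the other lists. Not every such pair is given in full; other exceptions are marked in the text. Symbols came from the platform's annotation, 58 of them updated through RefSeq R64, which also gave gene spans. Genes without a probe under the naming rule, promoter motifs, protein identity and introns were not analysed here. The steps were tested on simulated data.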

Additional observations from a re-analysis of the deposited data

Results flagged for a closer look

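No ribosomal protein gene was called in the F-test for a change of its strain difference over time, where 0.551% of all features were. Of the genes that check the depletion, HSP82, HSC82 and BTN2 were called. Over 90 min they changed by -3.10 ± 0.15, -2.89 ± 0.09 and -3.26 ± 0.09 in Hsf1-aa. In WT-aa they changed by -0.15 ± 0.15, -0.16 ± 0.09 and -0.36 ± 0.09. The limma F-test of the difference between strains over the 4 later times gave adjusted p = 1.52e-05, 2.85e-07 and 1.97e-07.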

How the results depend on the processing

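Of 1227 recomputed counts and medians of the ribosomal protein genes, 1136 stayed within their replicate spread or within 1.5 times their count and 91 moved. Where values moved the cause was not tested. Most of the counts were 0 in the main fit, and 0 against 0 was taken as unmoved. The replicate spread of a median was 0.041, about the size of the median strain differences at 30 and 90 min (-0.041 and -0.039). The total is thus a weak measure of stability. Medians close to 0 changed sign: that at 30 min without array a of either strain, and those at 0 min and at 90 min over both strains in several settings. Loess fitted without the ribosomal protein spots gave a 60 min median of -0.228 and 1 called member in the mean strain difference, RPS10A. Median centring gave -0.180 at 60 min and -0.0495 at 90 min over both strains, with 1 member called at 15 min and 2 at 90 min over both strains. Print-tip loess called 2 members in Hsf1-aa at 90 min, 3 at 90 min over both strains and 3 in the Hsf1-aa F-test. Centring on 46 external control spots moved the median of all features by up to -0.106 (Hsf1-aa at 90 min); it gave member medians of 0.0578, -0.00672 and -0.0822 for the strain difference at 0, 15 and 30 min and -0.0780 at 90 min over both strains, where 1 member was called. The authors' deposited table gave -0.0878 at 60 min and called 2 members in Hsf1-aa at 90 min, 1 at 15 min and 6 at 90 min over both strains, and 3, 1 and 16 in the F-tests of Hsf1-aa, WT-aa and both. Array weights called 3 members in Hsf1-aa at 60 min, 6 in WT-aa at 15 min, 7, 1 and 7 at 15, 60 and 90 min over both strains, and 1, 11 and 20 in those F-tests. In the F-test over both strains, the 16 and 20 members of 125 stood beside 1731 and 2195 of all 6353 features. For the other counts of this paragraph the share of all features is not given, so they are not read as results about the members.

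The letter was the replicate block of the fit as the dye; without this block the F-test over both strains called 0 members, and with a block for each culture, chosen after seeing the data, 7. Without the 4 arrays at 30 min, also chosen after seeing the data, 12 members were called in the strain difference at 60 min, 1 in its mean and 1 in its change to 60 min, 2 and 3 in Hsf1-aa at 60 and 90 min, 3 in WT-aa at 15 min, 6, 1 and 6 over both strains at 15, 60 and 90 min, and 10, 11 and 26 in the F-tests. The F-test over both strains called 1171 of all features, 1946 with centring on control spots, 2195 with array weights, 324 without the block and 2514 without the 30 min arrays. Leaving out 1 array at a time gave 0 to 14 called members in the strain difference at 30 min, 0 to 2 at 60 min, 0 to 13 in its mean, 0 to 5 in its change to 30 min, 0 to 25 in WT-aa at 30 min, 0 to 1 and 0 to 4 over both strains at 15 and 90 min, and 0 to 5, 0 to 13 and 0 to 26 in the F-tests of Hsf1-aa, WT-aa and both; the median ran from -0.0924 to 0.00879 at 30 min and from -0.181 to -0.110 at 60 min. For the counts with a single array left out the share of all features is not given, so they are not read as results about the members. All 125 members were above background on every array.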
